A study of Mus musculus with 24 samples.

Results

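The polyribosome association of an mRNA was taken as its polyribosomal minus its total log2 value in 1 cortical lysate, and this difference was compared between 6 lysates of Fmr1 KO mice and 6 lysates of WT littermates. The comparison is the interaction of genotype with RNA kind. It asks whether an mRNA was more or less represented on polyribosomes than its level in the same lysate would give. A probe set entered if 6 or more of the 24 arrays had a log2 value of 4 or more for it, as was the case for 18544 of 45037 (41.2%). These stood for 9956 genes when each gene was given its brightest probe set over all arrays. Affymetrix Mouse 430 2.0 arrays had been used for both RNA kinds. The 2 arrays of equal genotype and replicate number were taken as 1 lysate, which the labels do not state, and all 24 were used.

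All mice were males of the FVB strain at postnatal day 7, and the genotypes were WT and Fmr1 null. The cerebral cortex was freed of white matter, and cycloheximide, which holds ribosomes on the mRNA, was in the buffers of both genotypes. A replicate was a pool of 2 mice. Polyribosomal RNA came from fractions 10 to 13 of a 16-fraction sucrose gradient, where mRNAs carry 6 or more ribosomes, and total RNA from 20% of the lysate kept back before the gradient. The measure therefore does not tell an mRNA on fewer than 6 ribosomes from one on none. Nor does it show a gain of ribosomes by an mRNA that stays within these pooled fractions.

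An mRNA in active translation is read by several ribosomes at once, and the heavier a gradient fraction, the more ribosomes its mRNAs carry. FMRP, the RNA-binding protein encoded by Fmr1, binds the coding part of many long neuronal mRNAs, travels with polyribosomes and is known as a brake on translation. Its loss causes fragile X syndrome, and excess protein synthesis has been described in the brains of mice that lack it.

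The tissue label was set against marker genes. All 20 excitatory neuron markers on the array reached a log2 value of 4 in each of the 12 total arrays, with the cortical neuron gene Neurod6 between 12.04 and 12.30 and the interneuron enzyme gene Gad1 between 11.64 and 11.96. Hoxb3, Gabra6, Pcp2 and Drd2, markers of hindbrain, cerebellum and striatum, stayed below 4. Of the 24 markers of other brain regions on the array, 14 stayed below 4 in all 12 total arrays, but 7 reached 4 in each. The choroid plexus gene Ttr ranged from 2.65 to 11.4 in total RNA, in both genotypes. No arrays were identical, and the share of probe sets at 4 or more was 38.8% to 40.0% in every array.

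Among the lysates, WT lysate 4 and Fmr1 KO lysate 5 stood apart. Their association values had an SD of 0.35 and 0.31 around the mean of their genotype over the probe sets tested, against 0.18 to 0.28 for the other lysates. They departed in the same way. The residuals of these lysates correlated across probe sets at r = 0.640, a description over genes that share 2 lysates, and the next highest r between a WT and an Fmr1 KO lysate was 0.391. As each genotype held 1 such lysate, several lists below are also given without them.

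Relative to other mRNAs, polyribosome association was nearly the same in both genotypes. The values had been normalized between arrays, which can remove a rise or fall shared by all mRNAs. Whether the whole loading of polyribosomes differed between genotypes was therefore not tested. Over the 18544 probe sets the mean association in Fmr1 KO followed that in WT with r = 0.977, where the points share the probe sets and the array normalization and are not replicates. Association had an SD of 0.65 across probe sets in either genotype, and the genotype difference had an SD of 0.14. In WT, 1894 probe sets stood at least 1 log2 unit from 0. All 1894 lay on the same side of 0 in Fmr1 KO, and 1627 were at least 1 unit from 0 there too. Long noncoding RNAs and ribosomal protein mRNAs were at the low end and proteasome mRNAs at the high end in both genotypes.

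**Figure D1:**
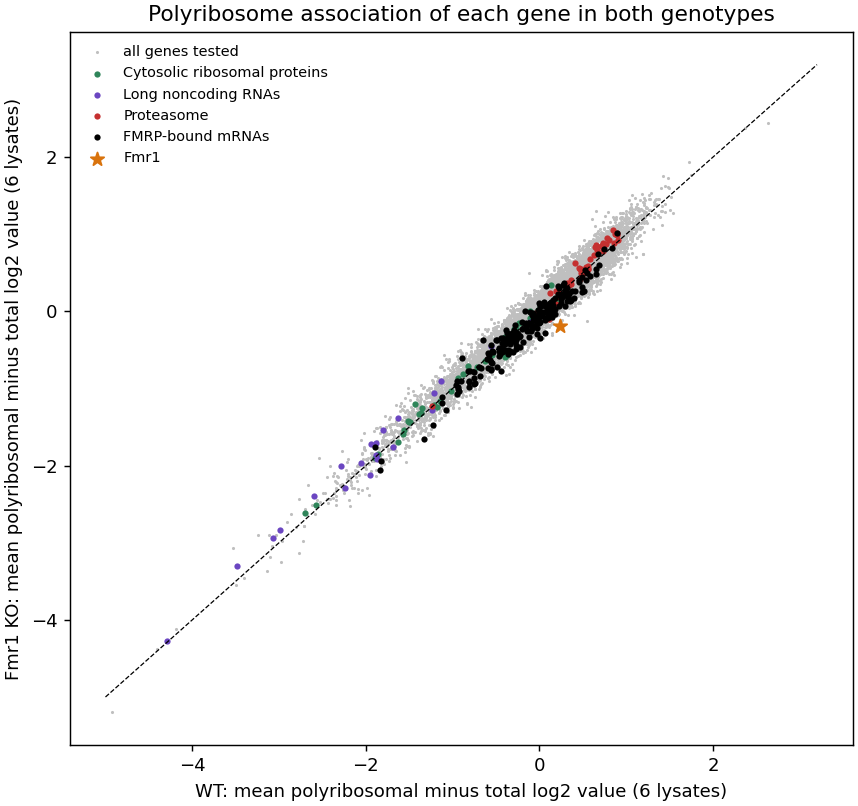
Mean polyribosomal minus total log2 value of each of the 9956 genes over the 6 WT lysates (x axis) and the 6 Fmr1 KO lysates (y axis), with 4 gene lists and the brightest Fmr1 probe set marked and a dashed line of equal values. The genes lie along the line from about -5 to 3, while Fmr1 sits below it, 0.24 in WT against -0.20 in Fmr1 KO.

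No mRNA passed the test of a genotype difference. Limma called 0 of 18544 probe sets higher and 0 lower in Fmr1 KO (percent called 0 in each direction) at a Benjamini-Hochberg adjusted p under 0.05, and the smallest adjusted p was 0.999. At an unadjusted p under 0.05 there were 442 probe sets (2.38%), 313 with higher and 129 with lower values, where 927.2 would be given by chance with evenly spread p-values. The excess of higher values moved with the scaling. With each array centred on its median the 416 probe sets at this p were split into 214 higher and 202 lower. Over genes, 233 had such a p (2.34%), 165 with higher (1.66%) and 68 with lower values (0.683%), and 43.5% of all 9956 genes had a value below 0.

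The sizes were small and the precision allows a bound on them. The genotype difference had a median of 0.02, and 90% of probe sets fell between -0.21 and 0.25. The median half-width of its 95% confidence interval was 0.30 log2 units, and for 75.9% of the probe sets the whole interval lay within 0.5 of 0. For 99.7% it lay within 1, but for only 3.91% within 0.25. The estimate exceeded 0.5 in size at 32 probe sets and 1 at none. A difference of 0.25 in a single mRNA could thus rarely be excluded with 6 lysates per genotype. These bounds are not rates of detection, and a difference of -0.93 at 1 Fmr1 probe set was not called.

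**Figure D2:**
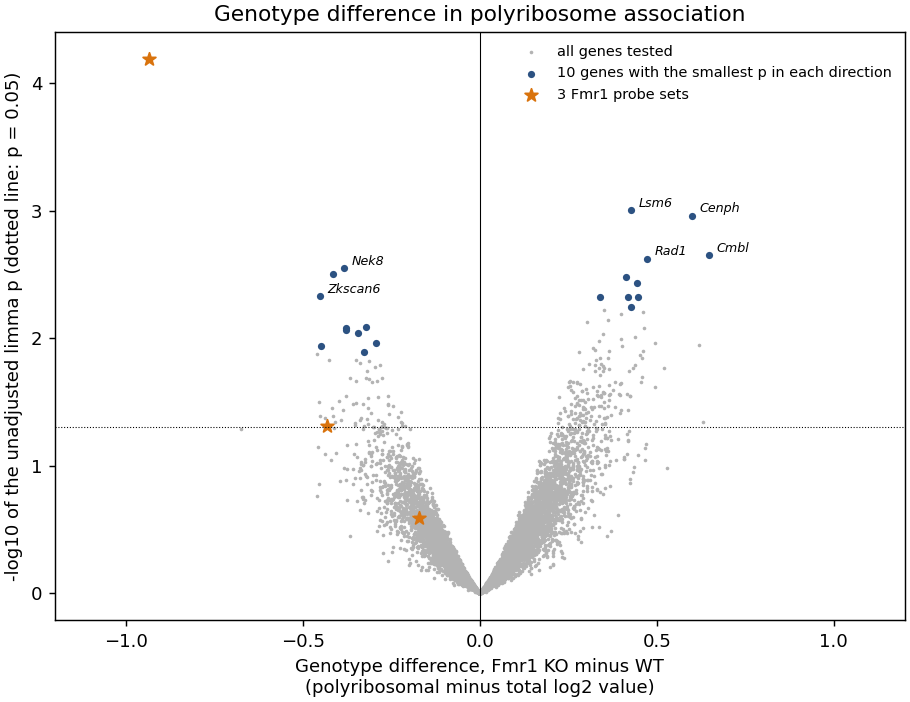
Genotype difference in polyribosome association of the 9956 genes (x axis, Fmr1 KO minus WT, log2 units) against the −log10 of the unadjusted limma p (y axis), with the 10 genes of smallest p in each direction and the 3 Fmr1 probe sets marked. The points spread further to the right of 0 than to the left, 165 against 68 genes pass an unadjusted p of 0.05, and 1 Fmr1 probe set stands apart at -0.93.

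Fmr1, the deleted gene, had level differences between Fmr1 KO and WT of -3.71 in polyribosomal and -3.28 in total RNA at its brightest probe set, 1423369_at. Its association there was -0.30, 0.25 and 0.61 (lowest, median and highest) in the 6 WT lysates and -0.85, 0.04 and 0.19 in the Fmr1 KO lysates. The groups overlapped, and the difference of -0.43 (SE 0.20) had a two-sided exact permutation p of 0.108. At the second probe set, 1426086_a_at, association was -0.02, 0.37 and 1.03 in WT and -1.005, -0.47 and -0.17 in Fmr1 KO. Here every Fmr1 KO lysate lay below every WT lysate.

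This difference of -0.93 (SE 0.17) had an exact permutation p of 0.00216, the smallest that 924 splits of 6 against 6 allow, while its limma p of 6.45e-05 became an adjusted p of 0.999 over all probe sets. The Fmr1 KO level of 1426086_a_at was 3.97 ± 0.29 (SD, n = 6) in polyribosomal RNA, under the limit of 4 used for dim probe sets, and 4.46 ± 0.13 (SD, n = 6) in total RNA. The third probe set, 1452550_a_at, stood at -0.17 (SE 0.15, exact permutation p = 0.288). It was below 4 in Fmr1 KO in both RNA kinds, at 3.85 and 3.62. The part of this dim signal in the Fmr1 differences was not tested. Of the autosomal relatives of Fmr1, which encode similar RNA-binding proteins, Fxr1 stood at -0.07 (95% interval -0.34 to 0.20) and Fxr2 at -0.19 (-0.70 to 0.32).

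**Figure D3:**
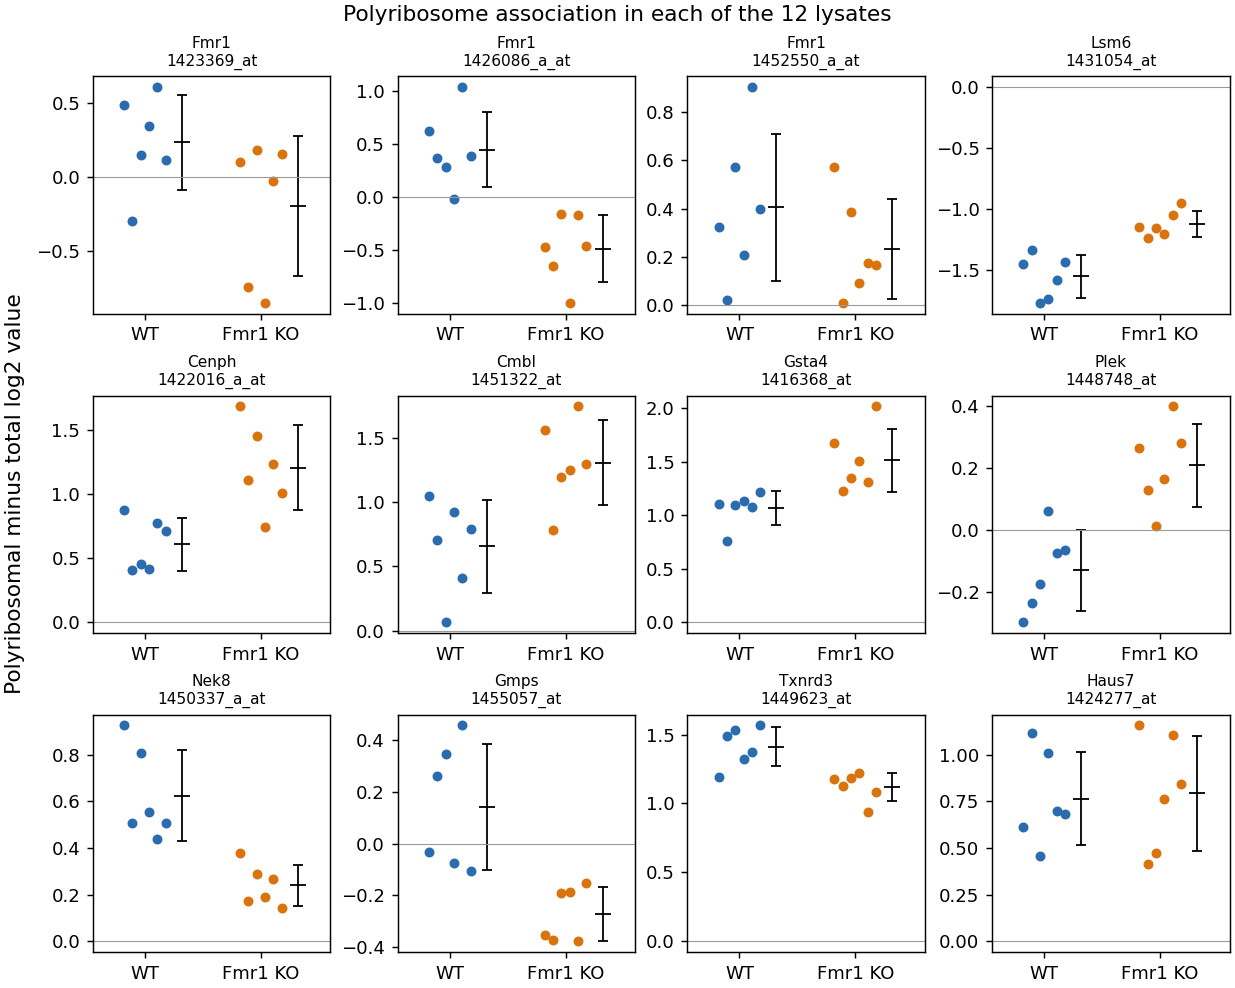
Polyribosomal minus total log2 value of 12 probe sets in each WT (blue) and Fmr1 KO (orange) lysate, with a bar for the mean and SD of the 6 lysates of a genotype and a scale of its own in each panel. The genotypes do not overlap for Fmr1 at 1426086_a_at, Lsm6, Gsta4, Nek8 and Gmps, and they overlap in the other panels.

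Among genes with higher association in Fmr1 KO, none of which passed, Lsm6 had the smallest p. It encodes a subunit of the LSm rings that bind U6 snRNA and the ends of mRNAs under decay. Its association was -1.77, -1.51 and -1.34 (lowest, median and highest) in WT and -1.23, -1.15 and -0.95 in Fmr1 KO, a difference of 0.43 (SE 0.11, limma adjusted p = 0.999). Its other probe sets stood at 0.22 and 0.23. All 6 Fmr1 KO lysates lay above all WT lysates, as they did for 5 of the 9956 genes (0.0502%). The others were Gsta4, Zcchc9, 2310057M21Rik and Brip1os, of which the last 3 were named after their values were seen. By exact permutation, random splits of 6 against 6 lysates separate fully in either direction with a probability of 0.00216. Among 9956 genes some would therefore do so by chance, and the separation does not set these genes apart.

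Gsta4 encodes a glutathione transferase that removes lipid peroxidation products. It stood at 0.76, 1.10 and 1.22 in WT and 1.23, 1.43 and 2.02 in Fmr1 KO, a difference of 0.45 (SE 0.14). In total RNA Gsta4 was at -0.36 in Fmr1 KO against WT and in polyribosomal RNA at 0.08, so the total arrays carried most of the difference. The same held for Cmbl, the gene of a hydrolase, which had the largest difference among these genes, 0.65 (SE 0.18). Its total level was at -0.40 and its polyribosomal level at 0.24. Cmbl association was 0.07, 0.75 and 1.05 in WT and 0.79, 1.27 and 1.74 in Fmr1 KO, with 5 of 6 Fmr1 KO lysates above all WT lysates.

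Cell division and checkpoint genes were 2 of these 10. Cenph, a kinetochore protein gene, stood at 0.60 (SE 0.15) and Rad1, a subunit of the checkpoint clamp loaded at damaged DNA, at 0.47 (SE 0.13). Cenph was a dim probe set, with total levels of 3.86 in WT and 3.58 in Fmr1 KO. Adcyap1, the gene of the neuropeptide PACAP, stood at 0.41 (SE 0.12) at the brighter of its probe sets and at 0.05 at the other. The remaining genes were Scrn3 at 0.44, Cdkl3 at 0.43, the activin-type receptor gene Acvr1c at 0.42 and Plek at 0.34. Cdkl3 was dim, with mean polyribosomal levels of 2.89 in WT and 3.25 in Fmr1 KO. The other probe set of Acvr1c stood at 0.13. Plek encodes pleckstrin, a protein kinase C substrate of blood cells and microglia.

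Of the genes with lower association in Fmr1 KO, again none past the threshold, Nek8 and Gmps did not overlap between genotypes (2 of 9956 genes, 0.0201%). Nek8, a kinase gene of the primary cilium, stood at 0.44, 0.53 and 0.93 in WT and 0.14, 0.23 and 0.38 in Fmr1 KO, a difference of -0.38 (SE 0.11, limma adjusted p = 0.999). Its levels lay near the limit of 4 in all groups, from 3.59 to 4.21. Gmps, the enzyme gene for the last step of GMP synthesis, stood at -0.11, 0.11 and 0.46 in WT and -0.38, -0.27 and -0.15 in Fmr1 KO, a difference of -0.42 (SE 0.12). The bright second probe set of Gmps stood at -0.02 and its dimmest at -0.07, so the value rested on 1 probe set.

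The other 8 genes ranged from -0.45 for the zinc finger gene Zkscan6 to -0.29 for Txnrd3, a thioredoxin reductase gene. Rap1gap, which switches off the small GTPase Rap1, stood at -0.32 (SE 0.11). Lzts1, the gene of a postsynaptic leucine zipper protein, stood at -0.38 (SE 0.13), with a total level 0.36 higher in Fmr1 KO and a polyribosomal level at -0.01. Pam, the enzyme that amidates neuropeptides such as PACAP, stood at -0.38 (SE 0.13), and Lgr4, a receptor for R-spondins, at -0.34 (SE 0.12). The mean levels of Pam lay near the limit of 4, from 4.05 to 4.38. Tmem125 stood at -0.45 and Tmem214 at -0.33. The mean levels of Tmem125 were under the limit of 4 in all groups, from 3.73 to 3.97. For Zkscan6, Txnrd3 and Tmem214 the other probe sets lay between -0.09 and 0.10.

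FMRP-bound mRNAs, a list recalled from published crosslinking of FMRP in mouse brain, are those on which a loss of FMRP would first be looked for. Of 219 on the array 209 were measured, and none was called. Values were below 0 for 158 of them (75.6%, against 43.5% of all genes) and the median was -0.07, against 0.02 over all genes. At an unadjusted p under 0.05 there were 0 higher (all genes 1.66%) and 2 lower (all genes 0.683%). These were Adgrb2, an adhesion G protein-coupled receptor gene, at -0.35 (SE 0.16), and Tsc2, the gene of tuberin, which restrains mTOR, at -0.35 (SE 0.16). At the other end stood the histone methyltransferase gene Kmt2a at 0.29.

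The shift of the list was smaller than the spread between lysates. The median association over the 209 mRNAs was -0.35, -0.12 and 0.03 (lowest, median and highest) in the WT lysates and -0.41, -0.20 and 0.01 in the Fmr1 KO lysates, and the genotypes overlapped over nearly their whole range. The lowest lysate of each genotype was the one that stood apart. Without WT lysate 4 and Fmr1 KO lysate 5 the median difference was -0.07. It was -0.01 without both lysates numbered 5, -0.04 without those numbered 3 and -0.12 without those numbered 4. In polyribosomal RNA alone the list median was -0.08 and in total RNA -0.02.

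Single mRNAs reported as FMRP targets were spread evenly around 0, with 12 of the 23 measured below and 11 above and a median of -0.01. Map1b, the microtubule-associated protein mRNA long studied as an FMRP target, had an association of -1.15, -0.39 and -0.19 in WT and -1.05, -0.69 and -0.25 in Fmr1 KO, a difference of -0.12 (95% interval -0.50 to 0.25). Its other probe sets stood at -0.11 and -0.10. The groups overlapped throughout. App, the amyloid precursor gene, stood at -0.15 at both of its probe sets (-0.39 to 0.10 for the brighter).

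Among postsynaptic targets, Camk2a, the kinase of synaptic plasticity, stood at -0.17 (-0.45 to 0.10) at its brightest probe set, while its 4 other probe sets ranged from -0.09 to 0.28. Dlg4, the gene of the scaffold PSD-95, stood at 0.29 (-0.23 to 0.81), the highest of the list. Shank3 stood at -0.07 (-0.43 to 0.29), Homer1 at 0.06 (-0.31 to 0.43) and Nlgn2 at 0.11 (-0.15 to 0.36). Receptor genes lay close to 0, with Gria1 at -0.10, Gria2 at 0.02, Grin2b at -0.01 and the metabotropic receptor gene Grm5 at -0.07, whose interval ran from -0.41 to 0.26. The intervals of Rac1, Rhoa and Ppp2ca, genes of small GTPases and a phosphatase, were among the narrowest, and all 3 lay within 0.26 of 0.

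The lowest value of this list was that of Diaph2, an actin nucleator gene on the X chromosome, at -0.34 (-0.75 to 0.08). Gabrd, the delta subunit of the GABA-A receptor, stood at -0.28 (-0.69 to 0.13) and Gabrb1 at -0.04. The potassium channel genes Kcnd2 and Kcnc1 stood at 0.07 and 0.09, and Dgkk, Eef1a1, Nos1ap and Sod1 at 0.13, -0.08, -0.06 and 0.05. Dgkk was dim, with a mean level over the 24 arrays of 3.81, under the limit of 4, so its value shows little. At the brightest probe set of each gene, none had a smaller unadjusted limma p than the 0.104 of Diaph2. The dim Camk2a probe set at 0.28 had an unadjusted limma p of 0.0435.

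Cytosolic ribosomal protein mRNAs had a median association below 0 in every lysate of both genotypes. Many of them start with a terminal oligopyrimidine tract, a C followed by a run of pyrimidines at the first base, which lets mTOR govern their loading. RefSeq promoter windows (GRCm38.p6) were read on the transcript strand for a C at the annotated first base followed by at least 4 bases that are each C or T. Of 32851 starts 823 hold it (2.51%). Among the tested ribosomal protein genes with a window, 8 hold it at an annotated start and 28 do not, with median associations of -1.17 and -0.51 in WT and -1.19 and -0.61 in Fmr1 KO. The following starts, 15 bases before and 15 from the first base on, with the run in capitals, show this element in ribosomal protein genes and in Gas5, a host gene of small nucleolar RNAs.
Rps6 (chr4:86857353-86857382, minus strand): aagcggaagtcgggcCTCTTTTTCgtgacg
Fau (chr19:6057932-6057961, plus strand): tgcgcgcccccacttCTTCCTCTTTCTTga
Rpl35 (chr2:39005117-39005146, minus strand): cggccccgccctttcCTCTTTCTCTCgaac
Rps10 (chr17:27635230-27635259, minus strand): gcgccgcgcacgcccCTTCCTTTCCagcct
Rpl14 (chr9:120571502-120571531, plus strand): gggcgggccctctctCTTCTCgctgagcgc
Gas5 (chr1:161035151-161035180, plus strand): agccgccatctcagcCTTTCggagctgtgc

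The mRNAs of these genes kept their association without Fmr1 to within the spread of the lysates. Fau, whose product is a fusion of a ubiquitin-like protein with ribosomal protein S30, had an association of -1.35 in WT and -1.25 in Fmr1 KO, and Rpl35 of -1.15 and -1.17. Rps10 was at -0.54 and -0.57 and Rpl14 at 0.14 and 0.35. Rps6 stood at -1.81, -1.50 and -0.93 (lowest, median and highest) in WT and -1.50, -1.26 and -0.85 in Fmr1 KO at its brighter probe set. Its difference of 0.22 (SE 0.15) was the highest of the ribosomal proteins, and the groups overlapped. This probe set was dim, with a WT total level of 5.52 where the list medians were 12.27 to 12.42. The other Rps6 probe set had an association of 0.09 in WT and 0.10 in Fmr1 KO, a difference of 0.02. Gas5 had the values -3.48 and -3.30.

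Over the 8115 tested genes with a promoter window, 247 had the run, with a median genotype difference of 0.03. The 7868 without it had a median of 0.02. Values above 0 made up 56.7% and 56.6%. A match is a description of the annotated start, which may not be the start used in cortex. By list, 29 of 42 cytosolic ribosomal protein mRNAs were above 0 (median 0.05), with list medians of -0.97, -0.80 and -0.55 in the WT lysates and -0.96, -0.77 and -0.51 in the Fmr1 KO lysates. The highest lysate of each genotype was again WT 4 and Fmr1 KO 5, and without them the median difference was 0.03. Without both lysates numbered 5 it was -0.03. Of 23 other mRNAs with a known tract 12 were below 0 (median -0.01).

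Among other genes of protein synthesis, the 54 translation factors had a median of 0.01. Etf1, the termination factor eRF1, had the smallest p of them, at 0.29 (SE 0.11) at its brightest probe set, while its other probe sets lay between -0.08 and 0.07. The 35 aminoacyl-tRNA synthetases had a median of -0.03, with the mitochondrial Hars2 at 0.30 (SE 0.13) and 0.46 (SE 0.13) at its 2 probe sets. The mTOR and PI3K list held 38 measured genes with a median of 0.05, from Tsc2 at -0.35 to the mTOR inhibitor gene Deptor at 0.34. For the integrated stress response, 27 genes had a median of 0.07, and its target Mthfd2, a mitochondrial folate enzyme gene, stood at 0.33 (SE 0.13). None of these lists had a called member.

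Genes of the mitochondrial ribosome and the proteasome lay mostly above 0. Of 76 mitochondrial ribosomal protein mRNAs 64 were above 0, with a median of 0.08 against 0.02 for all genes, none at an unadjusted p under 0.05. Mrpl18 had the smallest p, at 0.23 (SE 0.11). The list median in the lysates was -0.18, 0.27 and 0.64 in WT and 0.08, 0.23 and 0.61 in Fmr1 KO, so the genotypes overlapped and the median lysate was the lower one in Fmr1 KO. Its highest values were again those of WT lysate 4 and Fmr1 KO lysate 5. The median difference was -0.05 without both lysates numbered 5, 0.19 without those numbered 4 and 0.10 without WT lysate 4 and Fmr1 KO lysate 5, so its sign depended on 1 number.

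The proteasome list was tighter. It had 34 of 42 members above 0 and a median of 0.06, with 0.52, 0.57 and 0.66 in the WT lysates and 0.55, 0.62 and 0.65 in the Fmr1 KO lysates. The median difference lay between 0.05 and 0.09 when each number was left out. Pomp, a proteasome assembly factor gene, was highest at 0.22 and the activator gene Psme4 lowest at -0.20. Respiratory chain genes (71 measured, 43 above 0) had a median of 0.03 and chaperones (54 measured, 32 above 0) of 0.02.

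**Figure D4:**
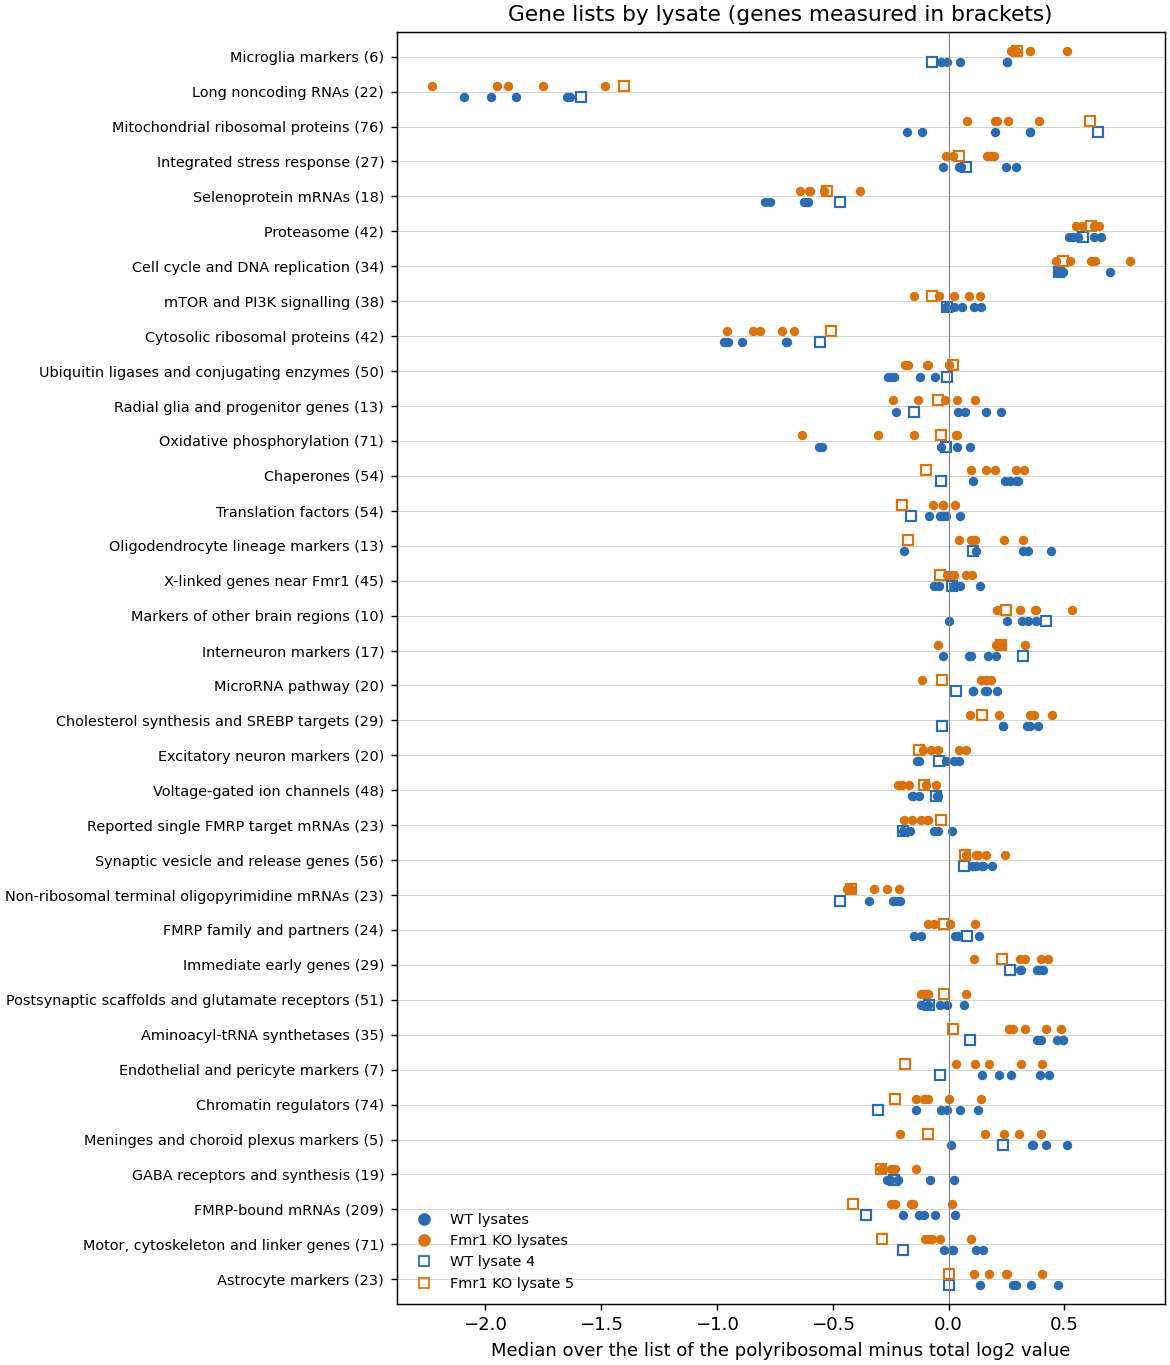
Median polyribosomal minus total log2 value over each of 36 gene lists (x axis, log2 units; number of genes measured in brackets) in every WT (blue) and Fmr1 KO (orange) lysate, ordered by the median genotype difference, with WT lysate 4 and Fmr1 KO lysate 5 as open squares. The genotypes overlap in every list but microglia markers, and the squares lie at one end of their group in many lists, at -0.35 and -0.41 for FMRP-bound mRNAs and 0.64 and 0.61 for mitochondrial ribosomal proteins.

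Motor, cytoskeleton and linker genes, many of them very long mRNAs, had 52 of 71 members below 0 and a median of -0.07. Kif1c, a kinesin gene, had the smallest p, at -0.35 (SE 0.13), and the tubulin gene Tubb4a the lowest value, -0.37. The lysate medians were -0.20, 0.02 and 0.15 in WT and -0.29, -0.08 and 0.10 in Fmr1 KO. Without both lysates numbered 5 the median difference was -0.02 and without those numbered 4 it was -0.11. Of 74 chromatin regulators 51 were below 0, with a median of -0.03, and the remodeller gene Chd1 stood at -0.45 (SE 0.19). The Chd1 groups overlapped, from -1.64 to -0.25 for WT and from -1.56 to -0.89 for Fmr1 KO. Lists can share members, as Kmt2a is in both this list and that of FMRP-bound mRNAs, so their medians are not independent.

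Synaptic lists lay nearer to 0. Synaptic vesicle and release genes (56 measured) had a median of -0.01, from Ppfia3, a liprin gene of the active zone, at -0.44 to the synaptotagmin gene Syt13 at 0.30. Postsynaptic scaffolds and glutamate receptors (51 measured) had a median of -0.03, voltage-gated channels (48 measured) of 0.00 and GABA receptor and synthesis genes (19 measured) of -0.04. Immediate early genes (29 measured) had a median of -0.03, and 1 of them, Ier3, stood at 0.45 (SE 0.16). The other FMRP family members and partners (24 measured with Fmr1) had a median of -0.02 and microRNA pathway genes (20 measured) of 0.00.

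Long noncoding RNAs lay at the low end of association in both genotypes. Of 22 measured, 16 had a genotype difference above 0, with a median of 0.12. Their lysate medians were -2.09, -1.76 and -1.59 in WT and -2.23, -1.83 and -1.40 in Fmr1 KO, so the genotypes overlapped and the median lysate was lower in Fmr1 KO. Zfas1, a host gene of small nucleolar RNAs, had the smallest p, at 0.26 (SE 0.18). Selenoprotein mRNAs (18 measured, 12 above 0) had a median of 0.07, with Dio2, the enzyme that activates thyroid hormone, at 0.28 (SE 0.15). The thioredoxin reductase gene Txnrd3, above at -0.29, was not in this list.

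Besides Fmr1, Haus7, Maob and Fundc2 had an RNA level that passed the test between genotypes in at least 1 RNA kind, and the interval of each one's association difference included 0. Haus7, a subunit of the spindle complex augmin, had level differences of -0.95 in polyribosomal and -0.98 in total RNA, and its association was 0.46, 0.69 and 1.12 (lowest, median and highest) in WT and 0.41, 0.80 and 1.16 in Fmr1 KO. The difference of 0.03 had a 95% interval of -0.30 to 0.35. Maob, the gene of monoamine oxidase B, stood at -0.01 (-0.44 to 0.41), and Fundc2, which encodes a mitochondrial outer membrane protein, at 0.17 (-0.19 to 0.53) and at 0.16 at its other probe set. All 3 are on the X chromosome. Of the 45 measured X-linked genes near Fmr1, 26 were above 0, with a median of 0.01 and 1 higher and 2 lower at an unadjusted p under 0.05 (all genes 1.66% and 0.683%), with Fmr1 itself one of the lower. Brcc3, a deubiquitinase gene, was the higher one, at 0.44 (SE 0.15) at its brightest probe set, while its 4 other probe sets ranged from -0.07 to 0.33.

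Markers of cell types give the same picture, except for microglia. Fewer cells of a type and less RNA per cell cannot be told apart in such lysates, and their part in these values was not tested. Of 15 microglial markers on the array 6 were measured, and 9 stayed below 4 in all total arrays. The median association of the 6 was -0.07, 0.02 and 0.25 in the WT lysates and 0.27, 0.29 and 0.51 in the Fmr1 KO lysates. Every Fmr1 KO lysate was above every WT lysate, the only list of 36 for which the genotypes did not overlap.

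None of the 6 passed, none had an unadjusted p under 0.05, and the genotypes overlapped in each single member. The lowest p was that of the complement gene C1qb, at 0.22 (SE 0.15) and at 0.07 at its other probe set. Aif1 was highest at 0.26 and the protease gene Ctss lowest at 0.00. The difference lay in total RNA, where the list median was -0.18, against -0.05 in polyribosomal RNA. Levels were low, with a median total level of the list of 4.88 to 5.69 in the WT lysates and 4.77 to 5.49 in those of Fmr1 KO. Plek, above, is in none of the lists and was named for its small p in these same data, so it adds no support here.

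Astrocyte markers had 17 of 23 members below 0 and the lowest median of all lists, -0.08, with the receptor gene Gpr37l1 at -0.26 (SE 0.11). Their lysate medians were 0.00, 0.28 and 0.47 in WT and 0.00, 0.21 and 0.40 in Fmr1 KO, with WT lysate 4 and Fmr1 KO lysate 5 at the low end of each. The median difference was 0.00 without both lysates numbered 5, -0.16 without those numbered 4 and -0.09 without WT lysate 4 and Fmr1 KO lysate 5. Excitatory neuron markers (20 measured), interneuron markers (17) and oligodendrocyte lineage markers (13) had medians of 0.00, 0.01 and 0.01. Slc17a7, the vesicular glutamate transporter gene, stood at 0.29 (SE 0.16) and the interneuron peptide gene Vip at 0.24 (SE 0.14). Radial glia and progenitor genes (13 measured) had a median of 0.03, with Vim, the gene of vimentin, at -0.21 and at -0.27 and -0.34 at its other probe sets.

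The remaining lists had medians of 0.05 for the cell cycle and DNA replication (34 measured), where Cdk2 stood at 0.32 (SE 0.12), 0.04 for ubiquitin ligases and conjugating enzymes (50 measured), where the ligase gene Hace1 stood at 0.35 (SE 0.12), and 0.00 for cholesterol synthesis (29 measured). Endothelial and pericyte markers (7 measured) stood at -0.03, meninges and choroid plexus markers (5 measured) at -0.04 and markers of other brain regions (10 measured) at 0.01. In all, 17 of the 36 list medians were below 0 and 19 above, from -0.08 to 0.15, and no list had a member past the threshold. Without WT lysate 4 and Fmr1 KO lysate 5, medians that moved by over 1.5 times included those of endothelial and pericyte markers (-0.10), the FMRP family and partners (-0.05), reported single targets (-0.03), mTOR and PI3K genes (0.02), non-ribosomal mRNAs with a tract (-0.04), interneuron markers (0.04), markers of other brain regions (0.04) and ubiquitin ligases (0.06). Those of excitatory neuron markers (0.02) and voltage-gated channels (0.01) turned sign. Without both lysates of 1 number, the respiratory chain median turned to -0.07 (number 5) and that of chaperones to -0.04 (number 4).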

How the data were processed

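Per the submitters' processing notes, the deposited values were made by the authors with GCRMA, which corrects background, normalizes between arrays and summarizes probe sets. Its version, and whether all arrays were normalized together, are not given in the sources used here. Their log2 scale was judged from the range of the deposited values. The platform annotation gave 1 symbol to 34945 probe sets, several to 932 and none to 9160. Symbols were updated through RefSeq (GRCm38.p6).

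Polyribosomal and total arrays of equal genotype and number were taken as 1 lysate, which the labels do not state. Residuals of the 2 arrays around their genotype means correlated across probe sets at r = 0.02 (WT lysate 2) to 0.52 (WT lysate 3). Within a genotype, the polyribosomal array correlated best with its own total array in every lysate but WT 2. The total arrays of WT lysates 1, 2, 4 and 5 and Fmr1 KO lysate 2 correlated better with the polyribosomal array of another lysate. The 12 differences were fitted with limma 3.58.1 (lmFit, eBayes) in R 4.3.3, two-sided, with Benjamini-Hochberg adjustment over all probe sets tested and a threshold of 0.05. The fit was run on simulated data with independent noise in every value. Those data held no residuals shared between lysates, as seen here, so the run does not cover that case. Fmr1 was also compared by exact permutation. Lists were described by counts and medians, with no test. Counts of genes at an unadjusted p under 0.05 describe the fit and are not calls. Plots used matplotlib 3.10.9 (Python 3.11.15).

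Genes named were those past the threshold, the 10 of smallest p in each direction, the member of smallest p in each list, Fmr1, Fxr1, Fxr2 and the reported targets, and the genes called in either RNA kind alone. The ends of a list's range and genes whose groups do not overlap were named after their values were seen. The members and lists were chosen with earlier results of these data known. A list of blood markers had no measured member. The labels state 6 littermate pairs but not that a number marks a pair. The 29 alternative settings covered the replicate block, the treatment of lysates and total RNA, filters, scaling, weights, variance moderation and left-out lysates.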

Additional observations from a re-analysis of the deposited data

Results flagged for a closer look

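Within a genotype, 1 lysate lay far from the other 5 for 7 of 166 groups of named probe sets and 5 of 72 groups of list medians, where chance alone gives about 1 in 20 such groups. Values are polyribosomal minus total log2 values. In WT, Gsta4 stood at 0.755 in lysate 2 (others 1.08 to 1.22), Tsc2 at -0.62 in lysate 4 (others -0.01 to 0.28) and the complex I gene Ndufa9 at 0.49 in lysate 1 (others 0.28 to 0.35). In Fmr1 KO, the glutamate receptor gene Grin2d stood at 0.16 in lysate 4 (others -0.31 to -0.16), Vip at 0.79 in lysate 1 (others 0.33 to 0.48), Gpr37l1 at 0.59 in lysate 4 (others 0.25 to 0.31) and Camk2a at -0.60 in lysate 5 (others -0.12 to 0.11).

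Of the list medians, WT lysate 4 was low for aminoacyl-tRNA synthetases at 0.090 (others 0.38 to 0.49) and for cholesterol synthesis genes at -0.028 (others 0.23 to 0.39), and WT lysate 6 was high for cell cycle genes at 0.70 (others 0.47 to 0.49). Fmr1 KO lysate 1 was low for interneuron markers at -0.046 (others 0.20 to 0.33), and Fmr1 KO lysate 2 was high for microglia markers at 0.51 (others 0.27 to 0.35). The second Fmr1 probe set differed between genotypes in polyribosomal minus total value by -0.93 (exact permutation p = 0.00216, all 6 Fmr1 KO lysates lower), with an Fmr1 KO polyribosomal level under the dim limit.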

How the results depend on the processing

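No setting called a probe set, in any of the 29 alternatives, and the smallest adjusted p of limma was 0.115, with the replicate block, at the second Fmr1 probe set. That block took WT and Fmr1 KO lysates of one number as a pair and gave 374 higher and 149 lower probe sets at an unadjusted p under 0.05, against 313 and 129 without pairing. The labels state littermate pairs but not that a number marks one, so the numbers were not taken as pairs in the main fit. The association residuals of same-numbered WT and Fmr1 KO lysates correlated at 0.13 to 0.31 in 4 of 6 pairs, and at -0.07 and -0.13 in the others. Residuals of polyribosomal RNA alone correlated at 0.26 to 0.63 in the same 4 pairs, and at -0.11 and -0.14 in the others. Residuals of total RNA alone correlated at 0.13 to 0.53, so whether the numbers mark pairs is not settled here. Of the 6 WT lysates 3 correlated best with the Fmr1 KO lysate of their own number.

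The counts at this p moved by over 1.5 times in the following settings, and the cause was not tested. Higher and lower counts were 857 and 787 with no filter (45037 probe sets tested), 149 and 68 with a log2 value of at least 6 in at least 12 arrays (11633 tested), 770 and 339 with array weights and 579 and 312 without WT lysate 4 and Fmr1 KO lysate 5, a choice made after seeing the data. Higher counts were 201 with 24 independent arrays. Lower counts were 208 with regression on the total value and 202 with each array centred. Leaving out lysates gave 175 to 874 higher and 83 to 576 lower, with 874 and 485 without WT lysate 4 alone. With polyribosomal and total arrays quantile normalized separately, 55.7% were higher, against 70.8%.

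Each list median moved by less than the spread of its lysates in every setting run for it, the mean over a gene's probe sets among them. Of the 36 list medians 15 kept their sign when each replicate number was left out. The sign turned for 16 named genes whose values were at most 0.12 in size. With regression it did for Ppp2ca (-0.026), Kcnd2 (-0.11), Grin2b (0.0044) and Haus7 (-0.076), with centring for Ppp2ca (-0.0019), Rac1 (-0.023) and Gria2 (-0.0077), with separate quantiles for Rac1 (-0.0061), with weights for Gria2 (-0.049) and Shank3 (0.036), and without WT lysate 4 and Fmr1 KO lysate 5 for Gria2 (-0.0079). When lysates were left out, WT lysate 4 and Fmr1 KO lysate 5 together included, ranges were -0.16 to 0.032 for Fxr1, -0.16 to 0.10 for Gabrb1, -0.19 to 0.0011 for Gria1, -0.068 to 0.11 for Gria2, -0.12 to 0.10 for Grin2b, -0.17 to 0.029 for Grm5, -0.074 to 0.18 for Haus7, -0.029 to 0.25 for Homer1, -0.010 to 0.13 for Kcnd2, -0.16 to 0.10 for Maob, -0.29 to 0.0024 for Map1b, -0.16 to 0.012 for Nos1ap, -0.021 to 0.054 for Ppp2ca, -0.030 to 0.060 for Rac1, -0.15 to 0.045 for Shank3 and -0.024 to 0.13 for Sod1. Signal near the limit of 4 restricts what the dim probe sets can show, those of Fmr1 in Fmr1 KO included. Plek, Cdk2, Ier3, Gpr37l1 and Dio2 also lay near this limit, with means over the 24 arrays of 4.40, 4.35, 4.47, 4.41 and 4.32.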
